A study of Mus musculus with 4 samples.

Results

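The miR-17-92 cluster is a polycistron, a group of microRNA (miRNA) hairpins cut from 1 primary transcript, and its 6 guide strands were followed here across mouse lung of different age and oxygen exposure. The members were chosen by name: they are the 6 of 750 miRNA assays whose deposited miRNA identifier is mmu-miR-17, mmu-miR-18a, mmu-miR-19a, mmu-miR-19b, mmu-miR-20a or mmu-miR-92a (mmu for mouse, left out below), a rule that uses names and no measured value. Lungs came from 4 groups of mice with 1 library each: adults kept for 72 h in hyperoxia (95% oxygen), adults kept for 72 h in room air, newborns kept for 72 h in hyperoxia and newborns kept for 72 h in room air. Newborns were collected at day 3 and adults were 2 months old, and the labels give no strain, genotype or sex. The tissue was right lung, cleared of blood with saline through the pulmonary artery, nursing dams alternated between the atmospheres, and RNA was read by TaqMan quantitative PCR after reverse transcription and preamplification. The labels do not say whether a library holds 1 animal or a pool, and no replicate stands behind any difference between a pair of libraries.

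A hairpin of such a transcript is trimmed by Drosha and then Dicer to a duplex, of which the guide strand is kept in the silencing complex and the passenger strand (written with a star) is mostly discarded. The cluster is driven by MYC and E2F factors and is known for promoting proliferation and survival. In mouse it is needed for normal growth of the fetal lung, and forced expression in lung epithelium keeps progenitor cells dividing. Its guides carry different seeds, the bases 2 to 8 that pair with target messenger RNAs. miR-17 and miR-20a repress cell cycle inhibitors such as p21 and the pro-apoptotic protein Bim, miR-18a represses matrix proteins such as CTGF, and miR-92a represses the integrin subunit alpha 5 in endothelium.

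All 6 guides matched a mature sequence in RefSeq (GRCm38.p6). They are printed 5′ to 3′ with the seed in capitals, because the seeds divide the cluster into the families by which the results are ordered, in the order of the hairpins along the transcript.
miR-17: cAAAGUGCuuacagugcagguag
miR-18a: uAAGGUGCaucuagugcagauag
miR-19a: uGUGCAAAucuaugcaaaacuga
miR-20a: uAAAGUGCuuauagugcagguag
miR-19b: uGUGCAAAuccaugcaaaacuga
miR-92a: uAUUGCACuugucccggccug
miR-17 and miR-20a share a seed, miR-19a and miR-19b share another, and miR-18a and miR-92a each have their own. Counting from 1 at the 5′ end, miR-19a and miR-19b differ by the substitution U11C alone, and miR-17 and miR-20a by C1U and C12U.

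The 6 hairpins lie on the plus strand of mouse chromosome 14 within 836 bases (GRCm38.p6, chr14:115043671-115044506). Their starts are 180, 329, 486, 634 and 756 bases after that of the miR-17 hairpin. In RefSeq the host gene Mir17hg is annotated as a long noncoding RNA starting 719 bases after the first hairpin, so its annotated start window covers hairpins of the cluster itself, and no promoter is shown. Mature miR-19b and miR-92a are also encoded on the minus strand of chromosome X, at chrX:52741991-52742013 and chrX:52741854-52741874, in the paralogous miR-106a-363 cluster. Their assays therefore read the sum of both loci, whereas the other 4 mature sequences have 1 locus each.

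Each library was spread over 2 cards of 384 wells. All 6 guides sit on the first card, in rows A and P, and all crossed the PCR threshold early: the threshold cycle (Ct) was 13.98 to 24.2 over the 24 measurements, well before the detection limit of 35 used here. Values below are log2 levels, the Ct of snoRNA202 (a small nucleolar RNA used as reference) on the same card minus the Ct of the assay, so higher means more RNA and a difference of 1 is 2-fold at perfect amplification. Levels of different assays are not comparable, since each assay has its own efficiency. Across the cards 468 assays were detected in adult hyperoxia, 468 in adult room air, 507 in neonatal hyperoxia and 477 in neonatal room air, and 426 in all 4. The technical SD of a difference came from U6, snoRNA135, U87 and Y1, which were read on both cards. It was 0.65 log2 for adult against neonatal room air, 0.95 for adult against neonatal hyperoxia, 0.26 for hyperoxia against room air in newborns and 0.33 in adults, and it leaves out variation between animals. The endothelial miR-126-3p and the epithelial miR-200 family (miR-200a, miR-200b, miR-200c, miR-141, miR-429) were detected in all 4 libraries.

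miR-17, the first guide of the transcript, had log2 levels of -2.28 in adult hyperoxia and -2.02 in adult room air, against -0.70 in neonatal hyperoxia and -0.89 in neonatal room air. Its adult libraries lay below both neonatal ones, while the libraries of each age differed by less than 1 technical SD. miR-20a, which shares its seed, was at -3.20 in adult hyperoxia and -2.70 in adult room air, against -1.94 in neonatal hyperoxia and -1.51 in neonatal room air. The ages were again separate, and here the lower library of each age was the hyperoxic one.

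miR-18a had the latest Ct of the guides (22.7 to 24.2) and log2 levels of -10.93 in adult hyperoxia and -10.76 in adult room air, against -9.17 in neonatal hyperoxia and -9.24 in neonatal room air. Its libraries of each age differed by less than 1 technical SD. miR-92a had -3.40 in adult hyperoxia and -3.01 in adult room air, against -1.96 in neonatal hyperoxia and -1.95 in neonatal room air. Its neonatal libraries stood together and both adult libraries lay lower.

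The miR-19 pair behaved less alike. miR-19a was at -6.15 in adult hyperoxia and -5.55 in adult room air, against -4.85 in neonatal hyperoxia and -4.98 in neonatal room air, which keeps the order of miR-17. miR-19b was at -1.48 in adult hyperoxia and -0.55 in adult room air, against -0.76 in neonatal hyperoxia and -0.98 in neonatal room air. The ages overlapped for this guide, with adult room air the highest of the 4 libraries and adult hyperoxia the lowest. Both adult libraries were below both neonatal libraries for the other 5 guides, as for 55.6% of the 426 assays detected everywhere and 54.2% of the 236 on the first card.

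**Figure D1:**
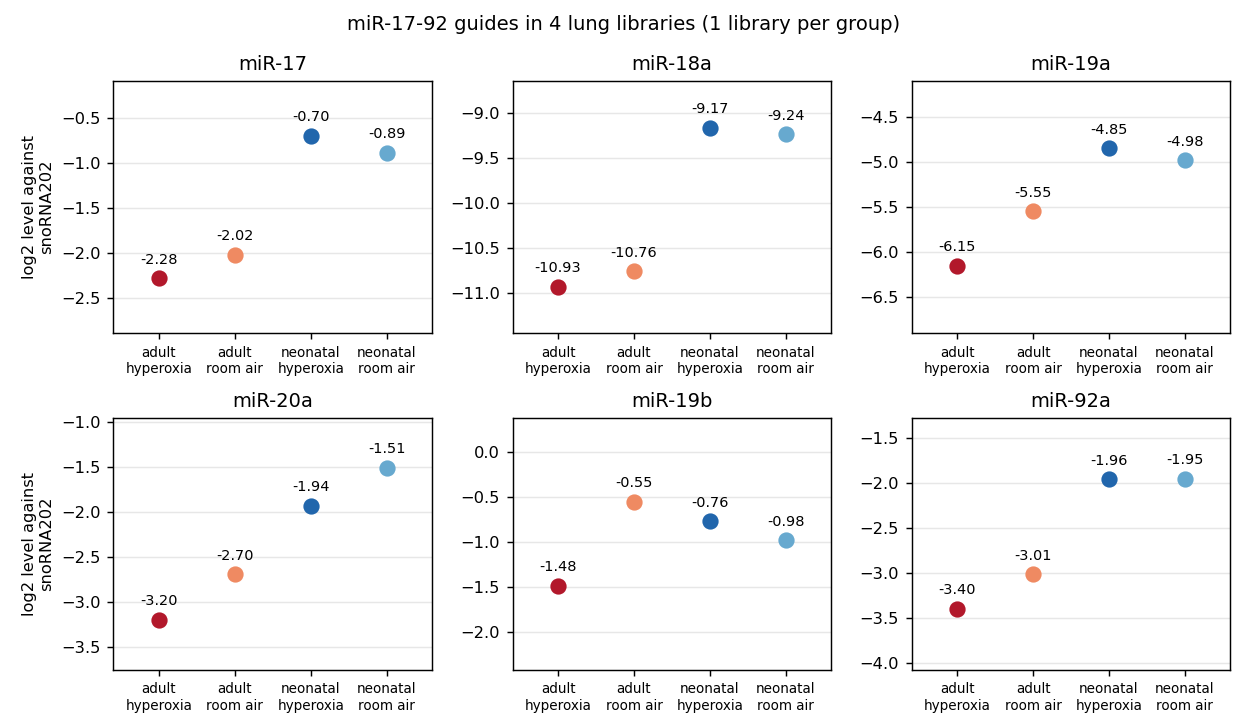
Log2 level against the first card's snoRNA202 (y axis, an equal span of log2 units in each panel) of each miR-17-92 guide in the 4 lung libraries (x axis), 1 point per library. The adult points lie below the neonatal points for 5 guides, and for miR-19b the adult room air point is the highest at -0.55.

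Between room air libraries, the question being lung development, 4 of 6 guides were lower in the adult by 2-fold or more: miR-18a at -1.52 log2, miR-20a at -1.19, miR-17 at -1.13 and miR-92a at -1.06. That share sits against 43.0% of the 435 assays compared, and 37.9% of the 240 on the first card. miR-19a was at -0.56 and miR-19b, at 0.43, was the member above 0, where 61.8% of assays were below 0. The median of the 6 guides was -1.10, beside -0.57 over all assays and -0.39 over the first card. With a technical SD of 0.65, 4 differences exceeded 1 SD and 1, that of miR-18a, exceeded 2. In whole lung, fewer cells of a type and less RNA per cell cannot be told apart.

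Between hyperoxia libraries all 6 guides were lower in the adult, where 71.8% of the 450 assays compared were. miR-18a was at -1.77 log2, miR-17 at -1.58, miR-92a at -1.44, miR-19a at -1.30, miR-20a at -1.27 and miR-19b at -0.72. At least 2-fold lower were 5 of 6, against 49.3% of all assays and 48.2% of the first card. The guides' median of -1.37 stood beside -0.98 over all assays and -0.95 over the first card. The technical SD of 0.95 was exceeded by 5 of the 6, and by 0 of them at 2 SD.

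Age and oxygen entered 1 additive fit over the 4 libraries and all 426 assays (limma, Benjamini-Hochberg adjustment over all of them). Of the 6 guides 1 changed with age: miR-18a fell by 1.64 ± 0.30 log2 (SE; mean level -10.85 log2 in adults, -9.20 in newborns; adjusted p = 0.0380). Over all assays 30.0% fell and 5.63% rose. miR-17 at -1.36 ± 0.32 (limma, adjusted p = 0.0577), miR-20a at -1.23 ± 0.30 (0.0587) and miR-92a at -1.25 ± 0.31 (0.0617) missed the threshold of 0.05. The miR-19 pair was further from it, with miR-19a at -0.93 ± 0.36 (limma, adjusted p = 0.136) and miR-19b at -0.15 ± 0.44 (0.807). With 1 residual degree of freedom per assay, the position of miR-17, miR-18a, miR-20a and miR-92a relative to the threshold moved with the fit. Leaving out the oxygen term, letting the variance follow the level, or fitting only assays with a Ct of 32 or below brought the calls to these 4, all lower, and fitting every well brought them to 0. The share of all assays called lower moved with them, to 38.5%, 37.8%, 36.8% and 9.6%.

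**Figure D2:**
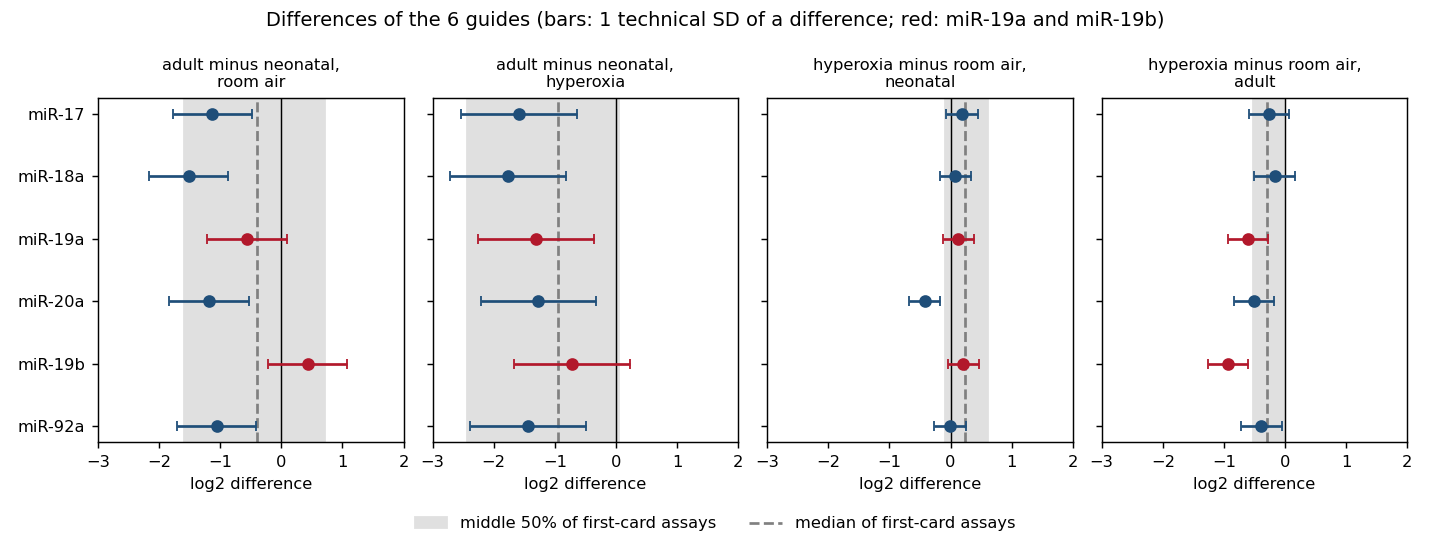
Log2 differences between libraries (x axis) for the 6 guides (y axis) in the 4 comparisons, with bars of 1 technical SD, the middle 50% (grey) and the median (dashed) of first-card assays. miR-18a is the lowest guide in both age comparisons, at -1.52 and -1.77, and miR-19b the highest, at 0.43 and -0.72.

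The direction of the age difference depended on the reference RNA. The Ct of snoRNA202 on the first card was 12.8 in adult hyperoxia and 13.4 in adult room air, against 13.5 in neonatal hyperoxia and 14.1 in neonatal room air, so it crossed earlier in adults. For miR-17 the unadjusted Ct was 15.1 in adult hyperoxia and 15.5 in adult room air, against 14.2 in neonatal hyperoxia and 14.9 in neonatal room air. miR-17 thus crossed later in adults, by fewer cycles than its level shows. In room air miR-18a, miR-20a and miR-92a also crossed later in the adult. miR-19a (Ct 18.98 in the adult, 19.04 in the newborn) and miR-19b (13.98 and 15.03) crossed earlier there. Against snoRNA202 of the first card, U6 itself differed by -2.65 log2 between adult and neonatal room air, snoRNA135 by -0.86, U87 by 0.43 and Y1 by 1.35. With U6 as reference the guides' median turned to 1.55 in room air and 1.61 in hyperoxia, and all 6 guides were called higher in adults (limma). Centring each card on the median of its miRNA assays put the medians at 0.04 and 0.29, with 1 call, miR-19b, which was higher in adults, and miR-18a at an adjusted p of 0.486 (limma). The mean of snoRNA135 and snoRNA202 gave -0.67 and -0.62 and centring each library on its mean -0.68 and -0.11, and under either the call of miR-18a was lost (limma, adjusted p = 0.0535 and 0.135). The median of all assays moved as well, reaching 1.46 and 0.99 with U6. Relative to the median of first-card assays, which any reference shifts together with the guides, the guides' own median differed by -0.70 log2 in room air and -0.42 in hyperoxia under all 6 references. The split of all assays was 24 higher and 128 lower with snoRNA202, 196 and 71 with U6, 99 and 77 with library means, 136 and 84 with card medians, and 50 and 112 with both small nucleolar RNAs.

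**Figure D3:**
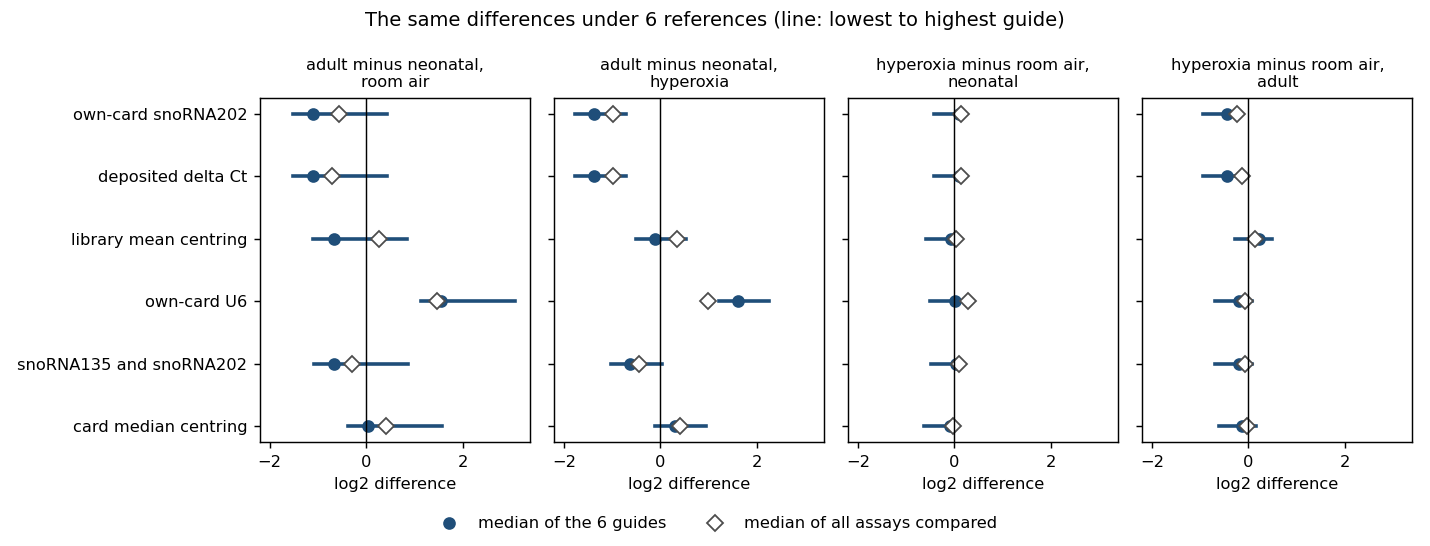
Median (circle) and span from lowest to highest (line) of the log2 differences of the 6 guides under 6 references (y axis) in the 4 comparisons, with the median of all assays compared (diamond). The room air age median runs between -1.10 with snoRNA202 and 1.55 with U6, while the span of the guides, 1.95 log2, is equal under all 6.

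How evenly the guides moved does not depend on the reference, because all 6 share a card and any reference shifts them together. From highest to lowest, the age differences spanned 1.95 log2 in room air and 1.05 in hyperoxia. Most of the room air span came from the miR-19 pair: without miR-19b it was 0.96, and without miR-19a and miR-19b the other 4 guides lay within 0.46. The SD over the 6 guides was 0.69 in room air and 0.36 in hyperoxia, which is 1.07 and 0.38 times the technical SD of those comparisons. That technical SD includes offsets between the cards, largest for U6 at -1.52 and -2.32 log2, and guides on 1 card share such offsets. The ratios therefore cannot show whether the unevenness exceeds measurement error within 1 card. The room air age differences followed no steady course along the transcript, since miR-19a at -0.56 lies between its neighbours miR-18a at -1.52 and miR-20a at -1.19. miR-19b at 0.43 lies between miR-20a and miR-92a at -1.06, but its assay sums both of its loci. miR-92a, the other guide with a second locus on chromosome X, was near miR-17 and miR-20a. The part of the second loci was not tested.

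The Ct gap between pairs of guides shows the same unevenness without any reference. The gap of miR-92a over miR-17 was 1.12 cycles in adult hyperoxia and 0.99 in adult room air, against 1.26 in neonatal hyperoxia and 1.06 in neonatal room air, a range of 0.27 over the 4 libraries and the narrowest of the 15 pairs. The widest range was that of miR-18a and miR-19b, 1.95 cycles. miR-19b crossed before miR-17 by 0.80 cycles in adult hyperoxia and 1.47 in adult room air, and after it by 0.07 in neonatal hyperoxia and 0.09 in neonatal room air. Even miR-19a and miR-19b, 1 base apart, had a gap that ranged by 0.99 cycles over the libraries.

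Other polycistrons on the cards varied widely in evenness. In room air the age differences of miR-106b, miR-93 and miR-25, a paralogous cluster, spanned 0.63 log2. miR-106a, miR-20b and miR-363, the detected guides that the miR-106a-363 cluster does not share with miR-17-92, spanned 2.23. That span came from miR-363 at -3.31, since miR-106a at -1.08 and miR-20b at -1.10 lay close together. miR-363 crossed late, at a Ct of 29.3 or later in every library, where miR-106a and miR-20b had at most 19.1. The age differences of miR-15b and miR-16 spanned 0.29, of miR-23b, miR-27b and miR-24 0.37, and of miR-143 and miR-145 0.92. The miR-200a cluster spanned 1.75, the miR-182 cluster 2.28 and miR-322, miR-503 and miR-351 4.87. The 1.95 of the miR-17-92 guides lies between these. A caveat is that a span grows with the number of members, which was 2 or 3 in each of the others. For the polycistrons other than miR-17-92 and its paralogs, loci giving the same mature sequence were not counted. Their assays may also sum more than 1 locus.

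**Figure D4:**
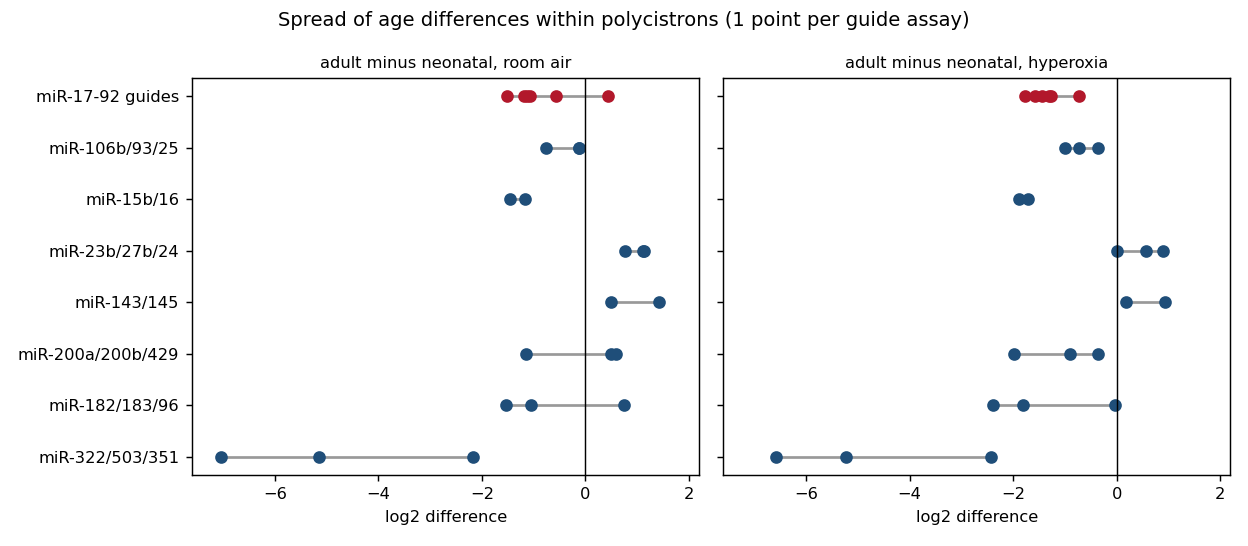
Log2 age differences (x axis, 1 point per guide assay) of 8 polycistrons (y axis) in room air and in hyperoxia. The miR-17-92 points spread over 1.95 log2 in room air, where miR-19b is the point right of 0, and over 1.05 in hyperoxia.

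Passenger strands offer a second reading of the same hairpins on the other card, against that card's own snoRNA202 (a rat-named miR-17-3p assay alone is on the first). The 3 hairpins with both arms detected are printed 5′ to 3′ with the guide arm (first) and the passenger arm (second) in capitals, to show that each pair comes from 1 precursor.
miR-17 hairpin, chr14:115043671-115043754, plus strand: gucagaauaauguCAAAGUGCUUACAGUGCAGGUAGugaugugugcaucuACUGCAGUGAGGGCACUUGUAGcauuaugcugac
miR-18a hairpin, chr14:115043851-115043946, plus strand: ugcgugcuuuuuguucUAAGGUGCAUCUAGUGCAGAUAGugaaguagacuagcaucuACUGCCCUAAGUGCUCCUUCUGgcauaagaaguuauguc
miR-20a hairpin, chr14:115044157-115044263, plus strand: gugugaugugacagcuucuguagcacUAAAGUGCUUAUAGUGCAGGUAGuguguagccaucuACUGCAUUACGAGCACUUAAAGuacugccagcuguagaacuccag
Of 7 passenger assays 3 were detected, all with Ct values later than those of their guides. miR-19a*, miR-92a* and rat-named assays of miR-17-3p and miR-20a* had no Ct of 35 or below in any library, although the mouse assays of the last 2 arms did.

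miR-18a* was at -13.22 log2 in adult hyperoxia and -13.11 in adult room air, against -11.19 in neonatal hyperoxia and -11.37 in neonatal room air. With snoRNA202 it repeated its guide closely, with an age difference of -1.74 in room air and -2.03 in hyperoxia. miR-20a* was at -11.14 in adult hyperoxia and -10.82 in adult room air, against -9.28 in neonatal hyperoxia and -9.49 in neonatal room air. Its age differences with snoRNA202, -1.33 and -1.86, had the sign of its guide's. miR-17* was at -14.41 in adult hyperoxia and -13.74 in adult room air, against -11.23 in neonatal hyperoxia and -12.43 in neonatal room air. The neonatal hyperoxia library stood apart for this arm, with a Ct of 25.8 beside 27.4 to 28.2 in the other 3.

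With age, 2 of the 3 passenger strands fell in the same limma fit, in which 30.0% of all assays did. miR-18a* fell by 1.89 ± 0.31 log2 (SE; limma, adjusted p = 0.0305) and miR-20a* fell by 1.59 ± 0.33 (adjusted p = 0.0452), while miR-17* was at -2.25 ± 0.60 (0.0701). With snoRNA202, the passengers in room air lay 0.14 to 0.22 log2 below their guides' age differences, close given the technical SD of 0.65. In hyperoxia the gaps were -0.26 for the miR-18a hairpin, -0.59 for miR-20a and -1.60 for miR-17. The arms are on different cards, and their closeness in room air depended on the reference. With own-card U6 the guides miR-17, miR-18a and miR-20a were at 1.51, 1.13 and 1.46. Their passengers were at -0.19, -0.62 and -0.21. With library means miR-17 was at -0.71 and miR-17* at 0.14. With U6 of the second card, which moved less with age (-1.12 in room air) than U6 of the first, 0 of the 3 passengers were called (limma, adjusted p = 0.0903 to 0.214). Centring on library means, on card medians or fitting every well also left none of the 3 called, and the mean of both small nucleolar RNAs left miR-18a* and miR-20a* called. All 3 were called lower with a variance trend (limma, adjusted p = 0.0456 for miR-17*) or with age alone (0.0328).

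**Figure D5:**
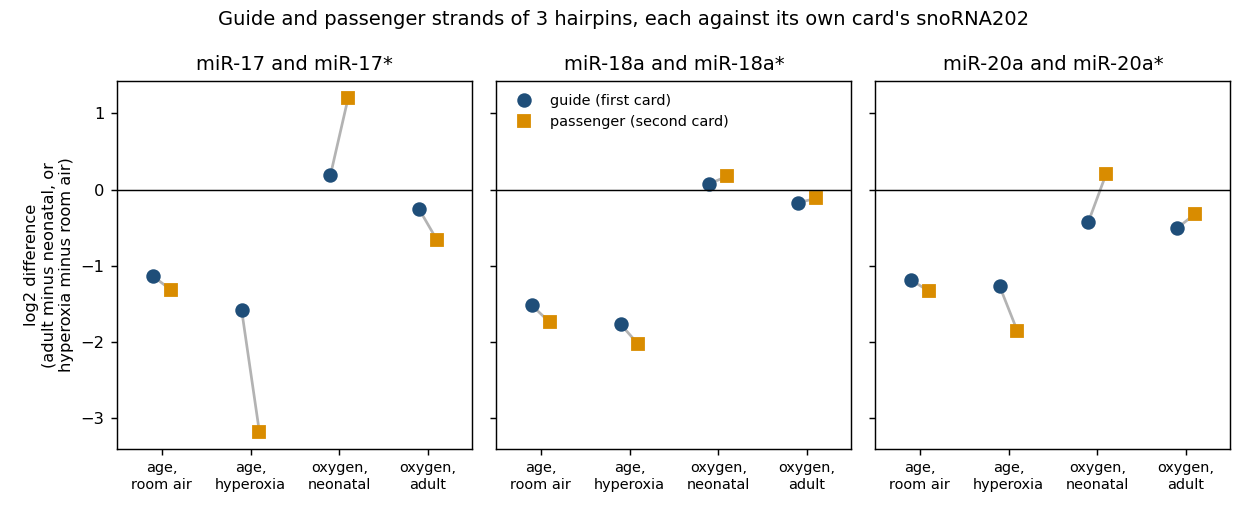
Log2 differences (y axis) of guide (circle) and passenger strand (square) of the miR-17, miR-18a and miR-20a hairpins in the 4 comparisons (x axis; age is adult minus neonatal, oxygen is hyperoxia minus room air), each against its own card's snoRNA202. The arms lie within 0.22 log2 of each other for age in room air, and miR-17* departs to -3.18 for age in hyperoxia and 1.20 for oxygen in newborns.

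Guides of the hyperoxia and room air libraries lay less than 2-fold apart at either age. In newborns miR-19b was at 0.21 log2, miR-17 at 0.19, miR-19a at 0.13, miR-18a at 0.08, miR-92a at -0.01 and miR-20a at -0.42. The median was 0.10, beside 0.13 over all 469 assays compared and 0.235 over the first card. In either direction 0 of 6 guides differed 2-fold, beside shares of 13.6% higher and 8.53% lower over all assays. The newborn signs also depended on the reference: 2 of 6 guides were below 0 with snoRNA202 or with both small nucleolar RNAs. That count was 3 with U6, 4 with library means and 5 with card medians. Among the guides miR-20a alone exceeded the technical SD of 0.26, and its passenger strand was on the other side of 0, at 0.21.

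In adults all 6 guides were lower in hyperoxia with snoRNA202, where 71.4% of the 448 assays compared were below 0. Other references changed this: 1 of 6 was below 0 with library means (median 0.22), 4 with card medians (-0.13), and 5 with U6 (-0.20) or with both small nucleolar RNAs (-0.19). miR-19b was at -0.94 log2, miR-19a at -0.61, miR-20a at -0.51, miR-92a at -0.39, miR-17 at -0.26 and miR-18a at -0.17. The median was -0.45, beside -0.24 over all assays and -0.29 over the first card. Of the 6 guides 0 reached 2-fold, beside shares of 8.26% lower and 3.79% higher over all assays. The technical SD of 0.33 was exceeded by 4 guides, and at 2 SD by miR-19b alone. In the limma fit no guide was called for oxygen. Their oxygen coefficients ran from -0.47 ± 0.30 for miR-20a to -0.04 ± 0.32 for miR-17 (limma, adjusted p = 0.988 to 0.993). Over all 426 assays 0.00% were called in either direction, and 13 had an unadjusted p under 0.05.

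Adult oxygen differences were below neonatal ones for all 6 guides, by 0.08 log2 for miR-20a up to 1.15 for miR-19b, with a median of -0.41. The sign depended on the reference: the difference was above 0 for 5 of 6 guides with library means (median 0.42), for 4 with card medians (0.11), and for 2 with U6 (median -0.08) or with both small nucleolar RNAs (-0.09). With snoRNA202, a value below 0 in adults beside one above 0 in newborns, seen for 4 of the 6, was seen for 41.5% of all 426 assays. The adult difference was the lower one for 70.4% of them, whose median was -0.32, and the first card's median was -0.48. No test of this difference was possible with 1 library per group.

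The miR-106b-25 and miR-106a-363 clusters and single genes elsewhere encode relatives of the guides by seed. Of 9 assays of such paralogs on the cards, 7 were detected in all 4 libraries. miR-18b crossed in no library, miR-367 had a Ct of 35 or below in adult hyperoxia alone, and miR-92b, with no assay matching its name, was not analysed here. Of the 7, 1 changed with age: miR-32, a relative of miR-92a by seed, fell by 1.46 ± 0.32 log2 (SE; limma, adjusted p = 0.0480). Over all assays 30.0% fell. With U6 it was at 1.35 and called higher, and with the other references its adjusted p was 0.0533 to 0.875 (limma). The median of the 7 was -1.08 in room air and -1.33 in hyperoxia, near the -1.10 and -1.37 of the miR-17-92 guides. Their values spread from -3.31 to -0.13 in room air and from -1.83 to -0.37 in hyperoxia. The -3.31 is that of the late-crossing miR-363, and the next lowest in room air was miR-32 at -1.26. The room air median is the value of miR-106a, a close relative of miR-17 in sequence. The guides of the miR-106b-25 cluster, which lies in an intron of the replication gene Mcm7, had smaller differences in room air. There miR-106b was at -0.76, miR-93 at -0.13 and miR-25 at -0.13. Passenger strands of this cluster, read on the second card, lay lower with snoRNA202. miR-106b* was at -2.31 in room air and -2.09 in hyperoxia, and miR-93* at -1.41 and -1.50. Both were called lower with age with snoRNA202 (limma, adjusted p = 0.0223 and 0.0450), and no other reference is reported here for these calls. In limma miR-106b was at -0.74 ± 0.30 (adjusted p = 0.143), and whether it differs from the miR-17-92 guides was not tested.

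Some paralogs differ from a guide by so few bases that their assays may not separate them, and their mature sequences are shown for that reason.
miR-106a: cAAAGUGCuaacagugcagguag
miR-20b: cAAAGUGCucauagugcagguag
miR-17 and miR-106a differ by U10A alone, miR-17 and miR-20b by U10C and C12U, and miR-20a and miR-20b by U1C and U10C. miR-106a crossed at a Ct of 15.1 in adult hyperoxia and 15.3 in adult room air, against 13.995 in neonatal hyperoxia and 14.9 in neonatal room air. Its distance from miR-17 was at most 0.23 cycles in every library. The Ct gap of miR-20b over miR-17 was 3.54 cycles in adult hyperoxia and 3.65 in adult room air. It was 3.57 in neonatal hyperoxia and 3.68 in neonatal room air. That range of 0.14 is narrower than for any pair inside the cluster. So is the range of 0.22 for miR-92a and miR-32, which differ at 10 of 21 bases compared. miR-18a and miR-18b differ by A18U and A20U, and there the miR-18b assay stayed at a Ct of 40 in all 4 libraries while miR-18a crossed. Cross-reading between these assays was not tested. A second assay of miR-20b, named for rat and on the second card, was at 0.38 for age in room air and -0.37 in hyperoxia, against -1.10 and -1.55 for the mouse assay.

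Outside the cluster and its passengers, the 5 assays with the 4-library pattern nearest to the mean pattern of the guides were miR-130a, miR-455, miR-181a-1*, a rat-named miR-381 assay and miR-467a, out of the 391 whose Ct never exceeded 32. Likeness was the root mean square difference between levels over the 4 libraries, each assay centred on its own mean, and it was 0.08 to 0.10 log2 for these 5. Of the guides themselves miR-92a was at 0.09, miR-19a at 0.10, miR-17 at 0.16, miR-20a at 0.17, miR-18a at 0.30 and miR-19b at 0.505. By this measure miR-19b ranked 130 of 391 in nearness to the guides' mean pattern, although it is itself 1 of the 6 in that mean. miR-130a, a miRNA of lung vessels and mesenchyme, was at -5.14 in adult hyperoxia and -4.79 in adult room air, against -3.90 in neonatal hyperoxia and -3.74 in neonatal room air.

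The cluster is expressed in blood and progenitor cells as well as in epithelium, and markers of such cells also differed between the libraries. The summed level of the 4 leukocyte miRNAs (miR-142-3p, miR-142-5p, miR-150, miR-223) was 0.84 in adult hyperoxia and 1.08 in adult room air, against 0.88 in neonatal hyperoxia and 0.68 in neonatal room air, as multiples of snoRNA202. In room air 2 of these 4 were at least 2-fold higher in the adult, beside 16.6% of the 435 assays compared. For the 3 erythroid miRNAs (miR-451, miR-144, miR-486) the sum was 0.024 in adult hyperoxia and 0.028 in adult room air, against 0.029 in neonatal hyperoxia and 0.045 in neonatal room air. Of the 3, 2 fell by 2-fold or more with age in room air, beside 43.0% of the 435 assays compared. The list split by sign for age, with miR-451 at 0.51 log2, miR-144 at -0.98 and miR-486 at -0.91 (limma, adjusted p = 0.343, 0.0947 and 0.101). The 5 epithelial miRNAs summed to 0.49 in adult hyperoxia and 0.88 in adult room air, against 1.16 in neonatal hyperoxia and 0.63 in neonatal room air. The 2 endothelial miRNAs (both arms of miR-126) summed to 8.77 in adult hyperoxia and 8.88 in adult room air, against 12.7 in neonatal hyperoxia and 9.28 in neonatal room air. The 5 mesenchymal miRNAs had a median of -0.73 log2 for age in room air, with 2 at least 2-fold lower and 1 higher, and of -1.56 in hyperoxia, with 3 lower. The 4 striated muscle miRNAs had a median of 0.18 in room air and -1.10 in hyperoxia, with 3 at least 2-fold lower in hyperoxia. Over all assays, a fall of that size with age was seen for 43.0% in room air and 49.3% in hyperoxia. In hyperoxia the age median was also -0.895 for epithelium, 0.25 for leukocytes and -0.79 for erythroid cells. Each sum is weighted toward its earliest-crossing assays, so sums of different lists are not comparable. Marker sums and medians were computed with snoRNA202 alone, and the direction of the guides' age difference depended on the reference. All markers were detected in every library, and their part in the guides' differences was not tested.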

How the data were processed

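Threshold cycles (Ct) and delta Ct, the Ct of a well minus that of snoRNA202, were deposited by the authors on a log2 scale, per the file headers; a well with no crossing holds 40. Reverse transcription, preamplification and TaqMan assays are per the labels' protocols; the sources used here name no software or threshold setting. The deposited delta Ct of adult room air uses the other card's snoRNA202 in 385 wells, none of them a guide, so levels were recomputed against the well's own card. Groups came from sample titles. An assay entered a comparison if neither library's Ct exceeded 35, and 2-fold means 1 log2 unit. Technical SD is the root mean square gap between cards of 4 control RNAs over the square root of 2. The additive age and oxygen model used limma 3.58.1 (R 4.3.3) on 426 assays, with 1 residual and 2.16 prior degrees of freedom, and was tested on simulated data. Its p-values reflect the spread between these 4 samples alone, which may be technical. A shift of the reference RNA with age or with oxygen is not in its standard errors. Named are all members, their passenger strands, the paralog list, other assays of paralog hairpins and the 5 assays nearest in pattern. Members and lists were chosen with earlier results of these data known. Alternatives were 5 other references, 2 detection limits, a variance trend and models of 1 factor. Sequences and coordinates are from RefSeq (GRCm38.p6).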

Additional observations from a re-analysis of the deposited data

Results flagged for a closer look

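With snoRNA202 as reference, the hyperoxia difference had opposite signs in adult and neonatal lung for 4 guides, where it was below 0 in the adult and above 0 in the newborn: miR-17 at -0.26 and 0.19 log2, miR-18a at -0.171 and 0.077, miR-19a at -0.61 and 0.13, and miR-19b at -0.94 and 0.21. That pair of signs was seen in 41.5% of the 426 assays, and the neonatal values are within the technical SD of 0.26. The age difference of miR-19b also had opposite signs, at -0.72 in hyperoxia and 0.43 in room air. The signs depended on the reference: 1 of 6 guides had this pattern with library means or card medians, where 4 and 2 had the opposite one, and 3 had it with U6 or with both small nucleolar RNAs. The age difference of miR-19b was above 0 at both atmospheres under those 4 references. With 1 library per group, none of these differences was tested.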

How the results depend on the processing

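No paired analysis was possible because each group has 1 library and the labels give no shared replicate numbers, and no library could be left out of the fit without losing its residual degree of freedom. Ct limits of 32 or none left every median of the guides as it was, and the deposited delta Ct changed no value of a guide. The median age difference of the guides was 1.55 (room air) and 1.61 (hyperoxia) with U6, 0.0435 and 0.29 with card medians, and -0.11 in hyperoxia with library means, which also moved the adult oxygen median to 0.22. The room air range was 0.96 without miR-19b and miR-92a. Assays called for age numbered 152, against 267 with U6 and 78 with every well. Guides called numbered 1, against 6 (higher) with U6, 1 (higher) with card medians, 0 with library means, both small nucleolar RNAs or every well, and 4 (lower) with a variance trend, Ct 32 or age alone. Causes were not tested.

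With U6, age differences turned to the following. In room air miR-17 was at 1.51, miR-18a 1.13, miR-20a 1.46, miR-92a 1.58, miR-106a 1.57, miR-20b 1.54, miR-32 1.39 and miR-130a 1.60. In hyperoxia miR-17 was at 1.39, miR-18a 1.21, miR-19a 1.68, miR-20a 1.71, miR-92a 1.54, miR-106a 1.15, miR-20b 1.43, miR-363 1.65, miR-32 1.31, miR-130a 1.74, miR-455 1.63, rat-named miR-381 1.70 and miR-467a 1.81. In limma miR-17 was at 1.45, miR-18a 1.17, miR-19a 1.88, miR-20a 1.59, miR-19b 2.67, miR-92a 1.56, miR-106b 2.07, miR-93 2.26, miR-25 2.57, miR-106a 1.36, miR-20b 1.49, miR-32 1.35, miR-130a 1.67, miR-455 1.83, rat-named miR-381 1.89 and miR-467a 1.77.

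With card medians, room air values turned to 0.0075 for miR-17, 0.0795 for miR-92a, 0.0635 for miR-106a, 0.0385 for miR-20b and 0.10 for miR-130a. Hyperoxia values turned to 0.0815 for miR-17, 0.36 for miR-19a, 0.40 for miR-20a, 0.23 for miR-92a, 0.12 for miR-20b, 0.34 for miR-363, 0.0015 for miR-32, 0.42 for miR-130a, 0.32 for miR-455, 0.39 for rat-named miR-381 and 0.50 for miR-467a, and in limma miR-19b was at 1.26 and miR-25 at 1.16. With library means, room air values turned to 0.14 for miR-17* and 0.12 for miR-20a*, and hyperoxia values to 0.0134 for miR-130a, 0.0934 for miR-181a-1* and 0.0894 for miR-467a.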
